A study of Homo sapiens with 9 samples.

Results

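YAP1, its DNA-binding partner TEAD1 and 8 genes widely read as their output or feedback were followed in SKOV3 cells, an established ovarian cancer line, after lentiviral transduction with hairpins named for STXBP6. The genes were taken by symbol from the deposited table: YAP1, TEAD1, LATS2, AMOTL1, AMOTL2, AJUBA, CCN1, CCN2, CRIM1 and ANKRD1. All 10 of 10 were present among 36785 genes, and all 10 were among the 21296 genes with enough counts to be tested. The groups were sh1 (labelled STXBP6 knockdown_1, 3 libraries), sh3 (labelled STXBP6 knockdown_3, 3 libraries) and shNC (labelled NC, 3 libraries), and every group carried a lentivirus. Each library was poly(A)-selected RNA read as a strand-marked paired-end library. The labels do not tell separate cultures from repeat preparations, so a p-value here measures only the spread between these libraries.

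The Hippo pathway is a kinase relay that senses cell contact, cell shape and tension in the actin cytoskeleton. When it is active, MST and LATS kinases phosphorylate YAP1 and its paralog TAZ, which then stay in the cytoplasm. When it is inactive, YAP1 enters the nucleus, binds TEAD factors and switches on secreted matricellular proteins such as CCN1 and CCN2, together with genes for its own inhibitors. For this reason the target genes are often used in cultured epithelial cells as a reading of culture density and mechanics, while YAP1 activity is set mainly by phosphorylation and location, which RNA levels do not measure.

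Library totals ran between 57654447 and 69264400 counts, so 3 counts corresponded to 0.0433 to 0.052 CPM (counts scaled to a fixed library size). STXBP6 had 7, 4 and 26 counts in sh1 libraries, 20, 31 and 18 in sh3 libraries, and 4, 0 and 15 in shNC libraries, which gave log2 fold changes of 0.87 ± 1.02 for sh1 and 1.81 ± 1.01 for sh3 (edgeR, adjusted p = 0.56 and 0.23). A knockdown was therefore not detectable at this depth, and the targeted gene does not check the labels. Of 9 SKOV3 and epithelial markers, 8 reached 1 FPKM (fragments scaled by gene length and library size) and MUC16 was at most 0.0191 FPKM. Summed, the list stood at 719 to 749 FPKM in sh1, 1140 to 1190 in sh3 and 1120 to 1230 in shNC. That sum was mainly 1 gene, ERBB2, at 485 to 953 FPKM over the 9 libraries, ahead of KRT8 at 94.6 to 154. It is therefore no reading of the epithelial markers as a group. The 4 measured leukocyte markers summed to at most 0.133 FPKM in sh1, 0.358 in sh3 and 0.123 in shNC. Among them CD14 reached 0.358 FPKM and PTPRC at most 0.00297. Of 5 fibroblast markers, 3 reached 1 FPKM on average over the 9 libraries. LUM ran from 3.17 to 10.6 FPKM, COL1A1 from 4.51 to 8.93 and COL3A1 from 0.948 to 2.09. DCN was at most 0.423 and PDGFRB at most 0.125. The list summed to 16.3 to 16.9 FPKM in sh1, 12.1 to 13.1 in sh3 and 14.9 to 18.2 in shNC. Of 5 endothelial markers only KDR reached 1 FPKM, with sums of 0.978 to 1.15 FPKM in sh1, 2.72 to 2.9 in sh3 and 1.89 to 2.12 in shNC. Of 4 mesothelial markers 2 reached 1 FPKM, with sums of 5.2 to 5.84 FPKM in sh1, 6.64 to 7.87 in sh3 and 11.8 to 17.4 in shNC. The part of these markers in the results below was not tested. In bulk RNA fewer expressing cells and less RNA per cell cannot be told apart.

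Per length, as FPKM, the order of the 10 genes differed between the groups. In sh1 libraries CCN1 led at 85.2 ± 2.73 FPKM (SD, n = 3), ahead of CCN2 at 74.9 ± 3.66 and CRIM1 at 41.1 ± 0.816, and YAP1 at 32.1 ± 0.582. In sh3 libraries CCN2 led at 45.2 ± 2.22 FPKM, ahead of YAP1 at 39.7 ± 0.382, CRIM1 at 32.6 ± 1.19 and CCN1 at 31.6 ± 2.26. In shNC libraries YAP1 led at 41.0 ± 0.355 FPKM, ahead of CCN2 at 34.5 ± 9.68, CRIM1 at 27.6 ± 3.89 and CCN1 at 22.4 ± 3.5. CCN1 thus led only in sh1, and CCN2, CRIM1 and YAP1 all averaged more than CCN1 in sh3 and in shNC. TEAD1, AJUBA and AMOTL2 held the middle in every group, at means between 14.9 and 22.3 FPKM, and AMOTL1, LATS2 and ANKRD1 were lowest in every group, at 6.83 FPKM or less. In sh1 only AJUBA and AMOTL2 overlapped as neighbours, in sh3 CRIM1 overlapped CCN1 and AJUBA overlapped TEAD1, and in shNC every pair of neighbours overlapped except AMOTL2 with AMOTL1 and LATS2 with ANKRD1.

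**Figure D1:**
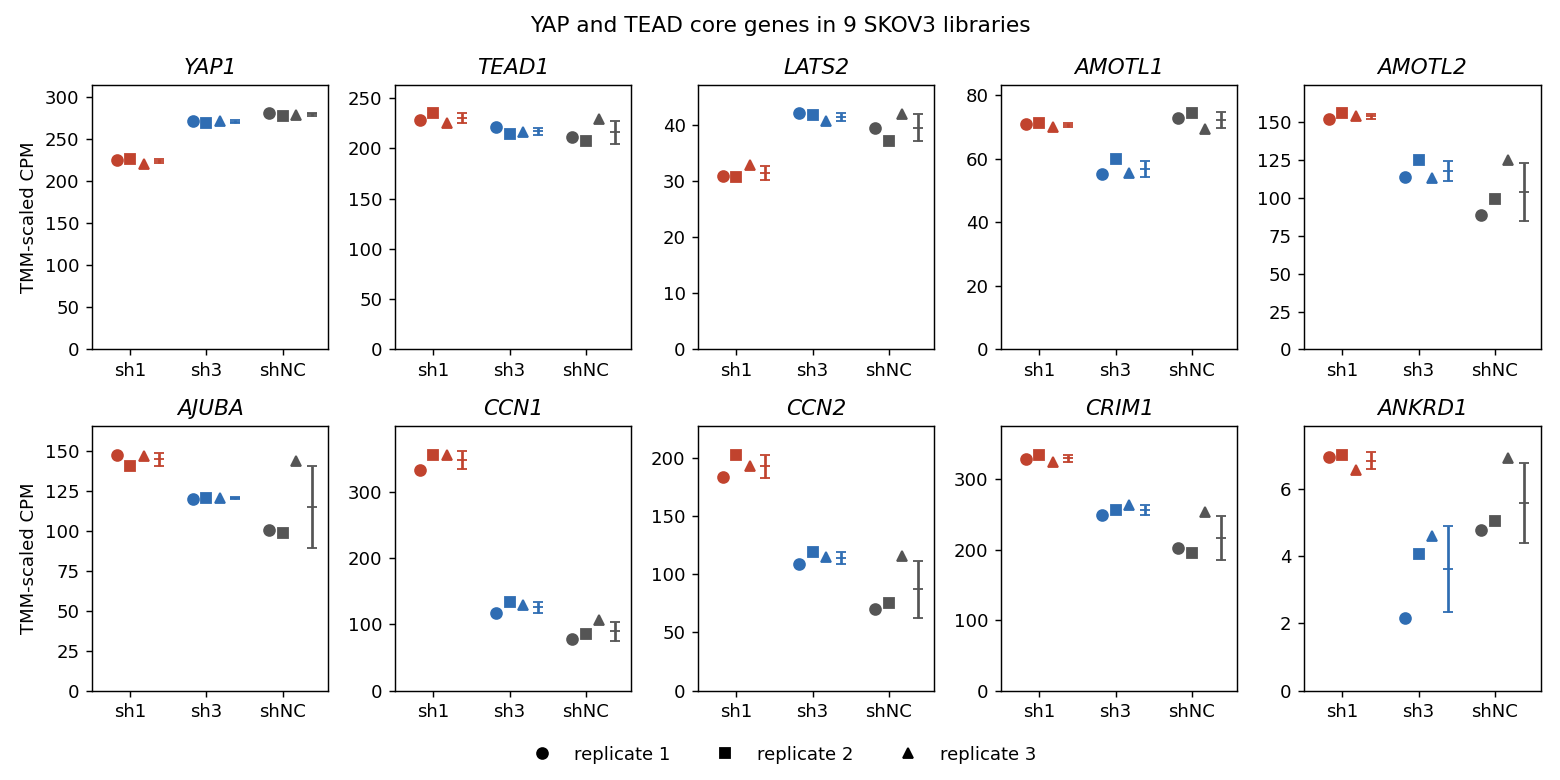
TMM-scaled CPM of each of the 10 genes (vertical axes from 0) in sh1, sh3 and shNC libraries; each marker is 1 library, its shape gives the replicate number, and the bar is the mean ± SD of 3 libraries. CCN1 and CCN2 are highest in all 3 sh1 libraries, YAP1 and LATS2 are lowest there, and AMOTL1 is lowest in the 3 sh3 libraries.

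Below, levels within a gene are given as TMM-scaled CPM, and a gene was called changed when its Benjamini-Hochberg adjusted p from edgeR's quasi-likelihood test over all tested genes was under 0.05. YAP1 (ENSG00000137693, chr11:102110447-102233424, GRCh38, plus strand), the coactivator that the pathway restrains, had 225, 226 and 221 CPM in sh1 libraries, 272, 269 and 272 in sh3 libraries, and 281, 278 and 279 in shNC libraries. The sh1 libraries lay below all others, and the sh3 libraries lay narrowly below shNC. YAP1 RNA fell by 0.32 on the log2 scale in sh1 (SE 0.02, adjusted p = 7.7e-07), a level 1.25-fold lower than in shNC. In sh3 the log2 fold change was -0.04 ± 0.02 (adjusted p = 0.2). YAP1 was also the most even of the 10 genes within shNC, where its SD was 1.80 CPM on a mean of 280.

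TEAD1 (ENSG00000187079, chr11:12674421-12944737, plus strand), which carries YAP1 to DNA, had 228, 235 and 225 CPM in sh1 libraries, 221, 214 and 216 in sh3 libraries, and 211, 207 and 229 in shNC libraries. shNC replicate 3 lay within the sh1 range, so the groups overlapped. The log2 fold changes were 0.09 ± 0.04 in sh1 (adjusted p = 0.078) and 0.01 ± 0.04 in sh3 (adjusted p = 0.88), and TEAD1 was not called in either. Without shNC replicate 3 the sh1 value was 0.14 and TEAD1 was called (adjusted p = 0.0024).

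LATS2 (ENSG00000150457, chr13:20973036-21061586, minus strand) encodes a kinase that phosphorylates YAP1 and is itself a YAP1 and TEAD target, closing a negative feedback loop. It had 30.8, 30.6 and 32.8 CPM in sh1 libraries, 42.0, 41.7 and 40.6 in sh3 libraries, and 39.4, 37.0 and 41.9 in shNC libraries. All 3 sh1 libraries lay below the other 6, while sh3 and shNC overlapped. LATS2 fell by 0.33 in sh1 (log2, SE 0.05, adjusted p = 0.00041), and in sh3 its log2 fold change was 0.07 ± 0.05 (adjusted p = 0.38).

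AMOTL1 (ENSG00000166025, chr11:94706431-94876748, plus strand) and AMOTL2 (ENSG00000114019, chr3:134355347-134374560, minus strand) are motins, scaffold proteins that bind YAP1 and hold it at junctions and actin filaments. AMOTL1 had 71.1, 71.3 and 70.0 CPM in sh1 libraries, 55.2, 59.9 and 55.6 in sh3 libraries, and 72.9, 74.4 and 69.6 in shNC libraries. The sh3 libraries lay below every other library, while sh1 and shNC overlapped. AMOTL1 fell by 0.35 in sh3 (log2, SE 0.04, adjusted p = 9.3e-05), and in sh1 its log2 fold change was -0.03 ± 0.04 (adjusted p = 0.63). AMOTL2 had 152, 156 and 154 CPM in sh1 libraries, 114, 125 and 113 in sh3 libraries, and 88.6, 99.1 and 125 in shNC libraries. The sh1 libraries were the highest, and shNC replicate 3 reached the level of the highest sh3 library. AMOTL2 rose 1.48-fold in sh1 (log2 fold change 0.56 ± 0.1, adjusted p = 0.00056), and in sh3 its log2 fold change was 0.17 ± 0.1 (adjusted p = 0.22). The sh3 value of AMOTL2 moved with the shNC libraries: it was 0.07 without shNC replicate 1 (adjusted p = 0.63), and 0.33 without shNC replicate 3, where it was called (0.00078).

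AJUBA (ENSG00000129474, chr14:22971177-22982551, minus strand) encodes a LIM-domain scaffold that binds LATS kinases at junctions under tension and limits their activity. It had 148, 141 and 147 CPM in sh1 libraries, 120, 121 and 121 in sh3 libraries, and 101, 98.5 and 144 in shNC libraries. shNC replicate 3 lay inside the sh1 range, and the other shNC libraries lay below both hairpin groups. AJUBA passed the test in sh1 (log2 fold change 0.34 ± 0.11, adjusted p = 0.029) and not in sh3 (0.07 ± 0.11, adjusted p = 0.69). The sh1 call of AJUBA was lost with DESeq2, no filter on low counts, limma at either pseudocount and only the groups compared (adjusted p = 0.056 to 0.065). It was also lost without any 1 of the 3 sh1 libraries (adjusted p = 0.052 to 0.077) and without shNC replicate 1 or 2 (adjusted p = 0.12 and 0.11). Without shNC replicate 3 AJUBA was called in both, at 0.54 in sh1 (adjusted p = 1.8e-07) and 0.27 in sh3 (adjusted p = 7.8e-05), while without shNC replicate 2 it stood at -0.02 in sh3 (adjusted p = 0.92).

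CCN2, long known as CTGF, is the target most often used to read YAP1 and TEAD activity, and its promoter is the textbook case of clustered TEAD sites. The core letters of the TEAD motif, CATTCC or GGAATG on the other strand, were searched in RefSeq promoter windows of GRCh38.p14, from 250 bases before to 50 bases after each listed transcript start. Windows were found for 7 of the 10 genes, 9 windows in all; CCN1, CRIM1 and TEAD1 are named only. The CCN2 window held 3 matches, ending 164, 99 and 90 bases before the start, and 0.128% of all 35116 windows of that length held 3 or more. Its 250 bases upstream of the start, at chr6:131951373-131951622 on the minus strand, are printed here 5′ to 3′ with the matches in capitals:
CCN2: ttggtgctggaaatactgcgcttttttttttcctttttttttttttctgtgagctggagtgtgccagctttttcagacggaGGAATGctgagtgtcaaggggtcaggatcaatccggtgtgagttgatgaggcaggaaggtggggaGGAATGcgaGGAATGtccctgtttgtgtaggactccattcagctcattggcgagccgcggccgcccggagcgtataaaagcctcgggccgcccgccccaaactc

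ANKRD1 held 2 matches, 215 and 123 bases before its start at their near ends, with a match to the AP-1 letters TGANTCA between them, 189 bases before the start. At least 2 TEAD matches occurred in 1.37% of all windows, and 7.71% held the AP-1 letters. AMOTL2 and AJUBA each held 1 match in the second of their 2 windows and none in the first, LATS2 held 1 match 10 bases after its start, YAP1 held 1 match 157 bases before its start, and AMOTL1 held none. In all, 6 of the 9 windows held the TEAD letters, against 14.0% of all windows. Apart from YAP1, the genes with a window were listed as output or feedback of YAP1 and TEAD1. The higher share is therefore not independent of how the genes were chosen. The SRF motif known as the CArG box had no match in the 9 windows. It occurred in only 1.29% of all windows, so 9 windows are too few to show a lack of it. In the GENCODE annotation the nearer ANKRD1 site and the AMOTL2 and AJUBA sites lie in untranslated exons, and the YAP1 site and the farther ANKRD1 site lie outside the gene. Annotations differ for LATS2, whose match lies inside the gene span of the deposited table and the RefSeq transcript but upstream of the GENCODE gene. They differ also for the nearer ANKRD1 site, which lies upstream of the span in the deposited table. The AMOTL1 window, at chr11:94768106-94768355 before its RefSeq start, lies inside the gene span of the deposited table. The start of that AMOTL1 span was therefore not searched. A match describes letters in this window and is not a measured binding site. The sites outside CCN2 are shown 5′ to 3′ on the strand of the gene, 30 bases each, with the TEAD letters in capitals, to show that the bases flanking the motif differ from gene to gene:
ANKRD1, chr10:90921290-90921319: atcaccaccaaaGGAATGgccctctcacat
ANKRD1, chr10:90921198-90921227: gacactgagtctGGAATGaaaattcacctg
AMOTL2, chr3:134374499-134374528: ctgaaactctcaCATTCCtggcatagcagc
AJUBA, chr14:22976884-22976913: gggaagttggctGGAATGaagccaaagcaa
LATS2, chr13:21061560-21061589: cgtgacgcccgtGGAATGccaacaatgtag
YAP1, chr11:102110273-102110302: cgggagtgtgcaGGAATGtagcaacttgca

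**Figure D2:**
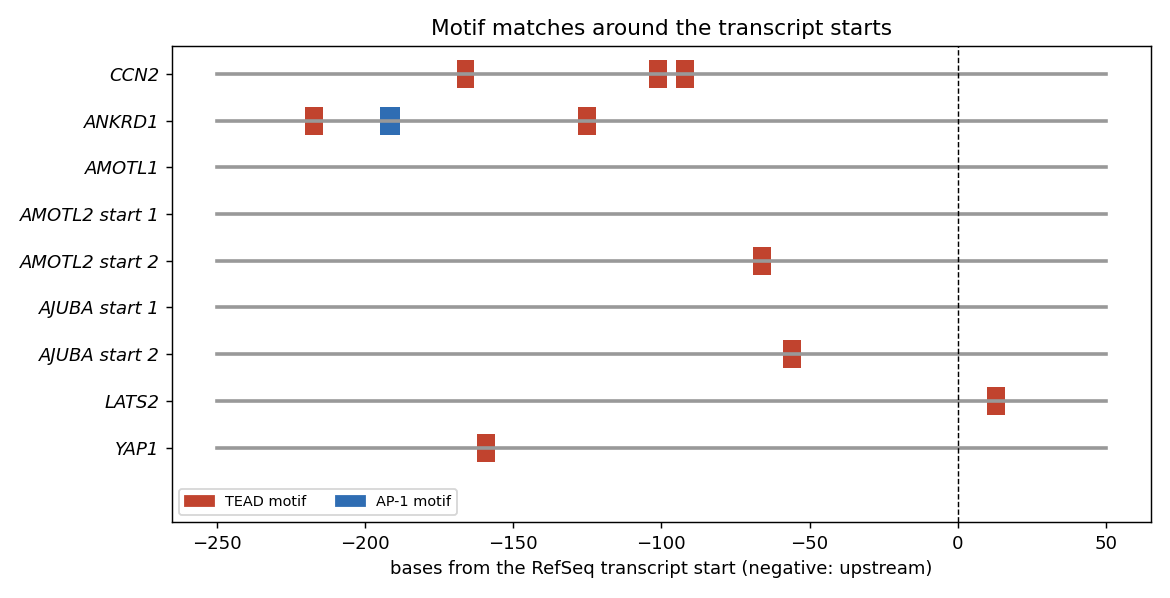
Matches to the TEAD letters (red) and the AP-1 letters (blue) in the RefSeq promoter windows of the 7 genes with a window, drawn to scale in bases from the transcript start (dashed line, negative values upstream). CCN2 carries 3 TEAD matches, ANKRD1 carries 2 with an AP-1 match between them, and the AMOTL1 window, which lies inside the deposited gene span, carries none.

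The 4 targets with no known place in the upstream relay are CCN1, CCN2, CRIM1 and ANKRD1. CCN1 (ENSG00000142871, chr1:85580761-85583950, plus strand), known earlier as CYR61, encodes a secreted integrin-binding matricellular protein. It had 333, 356 and 355 CPM in sh1 libraries, 117, 134 and 129 in sh3 libraries, and 78.3, 84.7 and 106 in shNC libraries. The 3 groups did not overlap, with sh1 highest and shNC lowest. CCN1 rose 3.89-fold in sh1 (log2 fold change 1.96 ± 0.09, adjusted p = 2.1e-08) and 1.41-fold in sh3 (0.5 ± 0.09, adjusted p = 0.0014). With any 1 library left out, the log2 fold change lay between 1.87 and 2.09 in sh1 and between 0.41 and 0.63 in sh3.

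CCN2 (ENSG00000118523, chr6:131948176-131951372, minus strand), also a secreted matricellular protein, had 184, 203 and 193 CPM in sh1 libraries, 109, 119 and 115 in sh3 libraries, and 70.5, 75.3 and 116 in shNC libraries. The sh1 libraries were above all others, and shNC replicate 3 lay within the sh3 range. CCN2 rose 2.22-fold in sh1 (log2 fold change 1.15 ± 0.14, adjusted p = 4.6e-05), and in sh3 its log2 fold change of 0.39 ± 0.14 did not pass (adjusted p = 0.06). Without shNC replicate 3 the sh3 value was 0.65 and CCN2 was called (adjusted p = 3.6e-06), while without shNC replicate 1 it was 0.27 (0.21).

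CRIM1 (ENSG00000150938, chr2:36355778-36551135, plus strand) encodes a transmembrane protein with cysteine-rich repeats that bind bone morphogenetic proteins. It had 329, 335 and 325 CPM in sh1 libraries, 249, 256 and 264 in sh3 libraries, and 202, 196 and 253 in shNC libraries. As with CCN2, sh1 was above all other libraries and shNC replicate 3 lay within the sh3 range. CRIM1 rose 1.52-fold in sh1 (log2 fold change 0.61 ± 0.07, adjusted p = 4.8e-05). It passed in sh3 at 0.24 ± 0.07 (adjusted p = 0.032), but that call was lost without any 1 of the sh3 libraries (adjusted p = 0.054 to 0.1) and without shNC replicate 1 or 2 (adjusted p = 0.12 in each). It was lost too with DESeq2, no filter, library totals, limma at either pseudocount and only the groups compared (adjusted p = 0.054 to 0.062). Without shNC replicate 3 it was 0.37 (adjusted p = 5.1e-06).

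ANKRD1 (ENSG00000148677, chr10:90912096-90921087, minus strand) encodes a nuclear ankyrin-repeat protein best known from stretched muscle. It was the least abundant of the 10 genes, with 423, 407 and 448 counts in sh1 libraries, 148, 245 and 282 in sh3 libraries, and 322, 339 and 406 in shNC libraries, or 6.97, 7.03 and 6.56 CPM, 2.17, 4.08 and 4.61 CPM, and 4.78, 5.06 and 6.94 CPM in the same order. The sh3 libraries were lowest and spread widest, with the first of them well below the other two, and shNC replicate 3 reached the sh1 range. ANKRD1 passed the test in neither hairpin, at 0.29 ± 0.24 in sh1 (log2, adjusted p = 0.38) and -0.63 ± 0.24 in sh3 (adjusted p = 0.077). The sh3 value of ANKRD1 rested on single libraries: it was -0.36 without sh3 replicate 1 (adjusted p = 0.19), -0.45 without shNC replicate 3 (0.24), and -0.84 without sh3 replicate 3, where it passed (0.041). With DESeq2 it was -0.63 and passed (adjusted p = 0.023).

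Over the 10 genes, 5 were called higher in sh1 (CCN1, CCN2, CRIM1, AMOTL2 and AJUBA), 2 lower (YAP1 and LATS2) and 3 were not called. Among all tested genes 38.7% were called in sh1, 19.9% higher and 18.8% lower, so 7 calls among 10 genes stand against a background of more than 1 call in 3 genes. The background shares here and below were not matched for expression level. With no filter on low counts the sh1 share was 20.3% of 36785 genes, so it depends on the level of the genes counted. The median log2 fold change of the 10 genes in sh1 was 0.32, against -0.02 for all tested genes, and the median absolute change was 0.33, against 0.3. The sh1 and shNC libraries did not overlap for 6 of the 10 genes, against 49.9% of all tested genes. In sh3, 2 of the 10 genes were called higher (CCN1 and CRIM1), 1 lower (AMOTL1) and 7 were not called, where 26.9% of all tested genes were called, 14.4% higher and 12.4% lower. The sh3 count of 3 was thus close to the background share, and its median of 0.07 compares with -0.01 for all genes. The sh3 and shNC libraries did not overlap for 4 of the 10 genes (CCN1 higher, and AMOTL1, ANKRD1 and YAP1 lower), against 40.5%. The sh1 and sh3 comparisons share the shNC libraries.

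**Figure D3:**
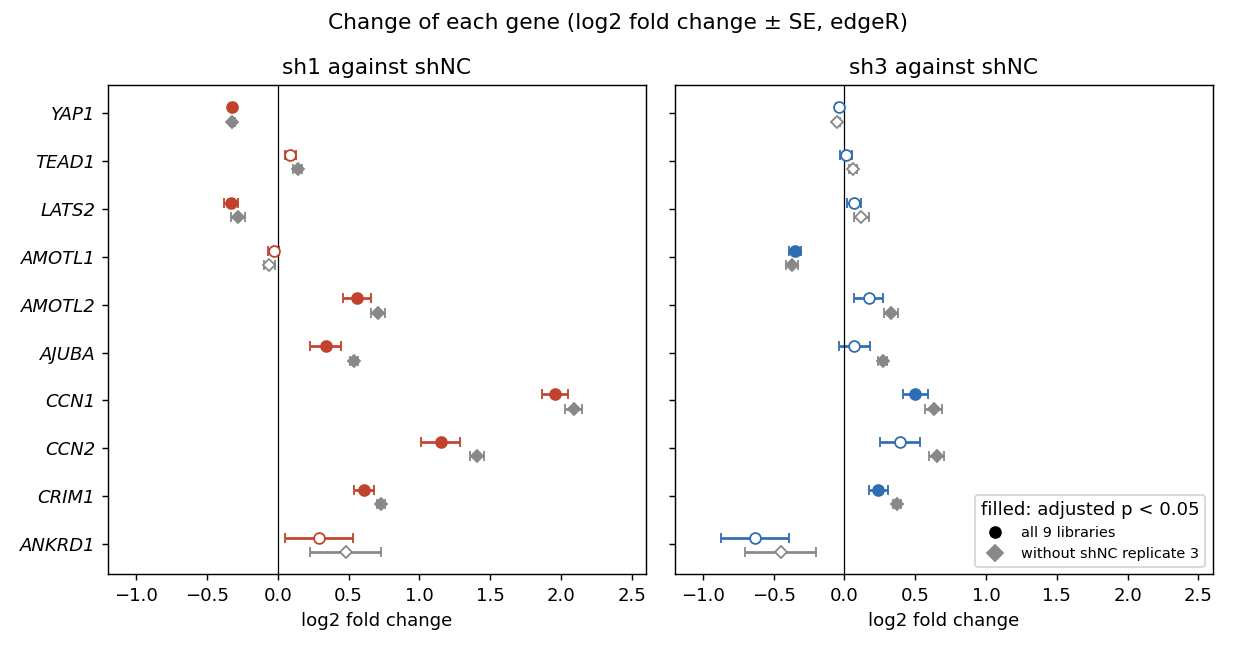
Log2 fold change ± SE of each gene in sh1 (left) and sh3 (right) against shNC from edgeR, with all 9 libraries (circles) and without shNC replicate 3 (grey diamonds); filled symbols passed an adjusted p of 0.05. In sh3 CCN1, CRIM1 and AMOTL1 are filled with all libraries, and CCN2, AMOTL2 and AJUBA become filled without shNC replicate 3.

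Among the shNC libraries, replicate 3 stood apart from replicates 1 and 2, for the targets and over all genes. Chi-square divided by its degrees of freedom, where larger values mean more difference beyond sampling noise, was 16.9 and 18.9 for its pairs with replicates 1 and 2. It was 9.62 between replicates 1 and 2, and 8.9 to 11.1 within sh1 and sh3. The CPM of shNC replicate 3 was above that of both other shNC libraries for 8 of the 10 genes. It stood at 1.58 times their mean for CCN2, 1.44 for AJUBA, 1.41 for ANKRD1, 1.34 for AMOTL2, 1.3 for CCN1 and 1.27 for CRIM1. YAP1 stood at 0.999 times and AMOTL1 at 0.945 times. For 6 of the 10 genes this library was more than 0.3 on the log2 scale from the mean of the other shNC libraries, against 31.3% of all tested genes. That share of all genes was 28.1% to 29.5% in the other 8 libraries, in which between 0 and 3 of the 10 genes lay that far out. With shNC replicate 3 left out, 8 of the 10 genes were called in sh1 and 6 in sh3, while 36.9% and 26.7% of all genes tested in that fit were called. The 8 in sh1 were the 7 above and TEAD1, and the 6 in sh3 were the 3 above with CCN2, AMOTL2 and AJUBA. For each added gene shNC replicate 3 was the highest shNC library, so leaving it out lowered the shNC mean. The added calls therefore follow from which library was dropped and are not a separate result beside the share of all genes. What set this library apart was not tested.

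**Figure D4:**
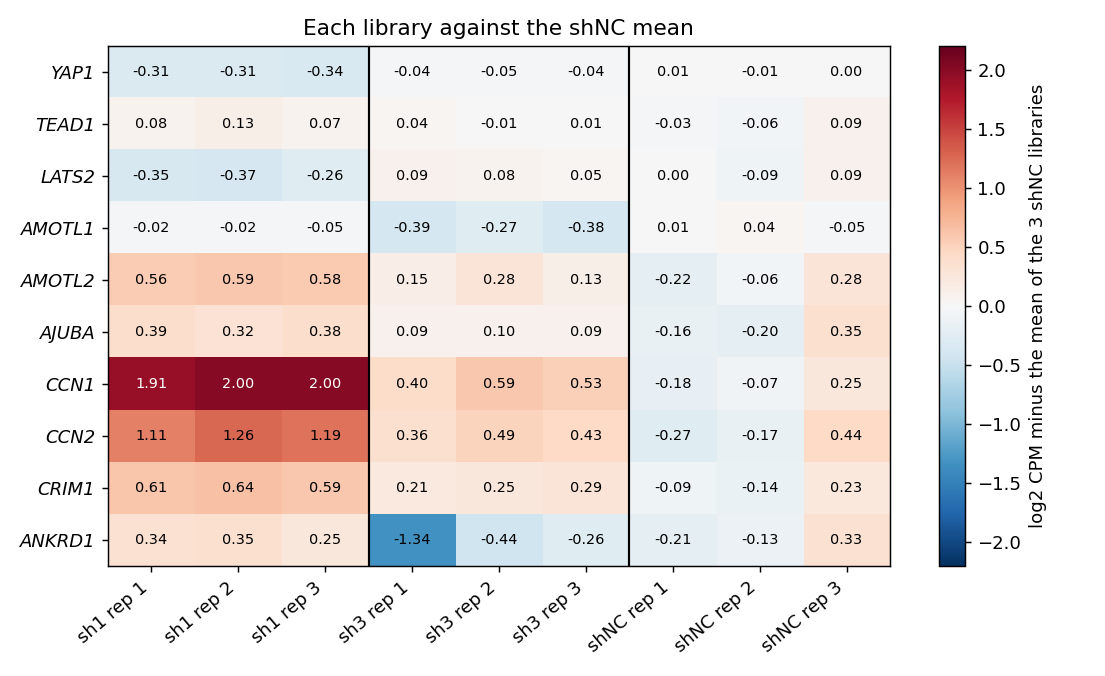
Log2 CPM of each gene (rows) in each of the 9 libraries (columns, sh1, sh3 and shNC) minus the mean of the 3 shNC libraries, with red for higher and blue for lower. CCN1 is 1.91 to 2.0 above the shNC mean in sh1 and 0.4 to 0.59 in sh3. shNC replicate 3 is above that mean by 0.23 to 0.44 for AMOTL2, AJUBA, CCN1, CCN2, CRIM1 and ANKRD1, and by 0.09 for LATS2 and TEAD1.

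Set directly against each other, the hairpins differed for 8 of the 10 genes, where 25.9% of all tested genes were called between sh3 and sh1. In sh3, 6 were lower than in sh1: CCN1 by a log2 fold change of -1.46 ± 0.09 (adjusted p = 5e-07), ANKRD1 -0.92 ± 0.24 (0.015), CCN2 -0.76 ± 0.14 (0.0019), AMOTL2 -0.39 ± 0.1 (0.011), CRIM1 -0.36 ± 0.07 (0.0037) and AMOTL1 -0.32 ± 0.04 (0.00022). LATS2 and YAP1 were higher in sh3 than in sh1, at 0.4 ± 0.05 (adjusted p = 0.00021) and 0.27 ± 0.02 (7.7e-06). AJUBA at -0.26 ± 0.11 (adjusted p = 0.11) and TEAD1 at -0.08 ± 0.04 (0.15) were not called, and both were called when shNC replicate 3 was left out of the shared spread (adjusted p = 4.1e-05 and 0.033). For every 1 of the 10 genes the 3 sh3 libraries and the 3 sh1 libraries did not overlap, against 41.8% of all tested genes. In the mean of both hairpins against shNC, 36.2% of all genes were called, and of the 10 genes CCN1, CCN2, CRIM1 and AMOTL2 were called higher and YAP1, AMOTL1 and LATS2 lower. LATS2 was at the threshold there (-0.13, adjusted p = 0.049). Both hairpin groups together lay clear of shNC for 2 of the 10 genes, CCN1 above and YAP1 below, against 26.6% of all genes.

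As a share of all counts, the 10 genes made up 0.169%, 0.174% and 0.17% of sh1 libraries, 0.13%, 0.134% and 0.133% of sh3 libraries, and 0.117%, 0.117% and 0.139% of shNC libraries. The sh1 libraries were highest, and shNC replicate 3 was above all 3 sh3 libraries. Genes most like the 3 best-known targets were sought by the smallest root mean square difference between log2 CPM centred on the shNC mean, over the 9 libraries and among 11338 tested genes at 1 FPKM or more. For CCN1 they were THBS1, which encodes the matricellular protein thrombospondin 1, at 0.15, the growth factor gene FGF5 at 0.17 and the astacin protease gene TLL1 at 0.18. The nearest of the other 9 genes to CCN1 was CCN2, at 0.46. THBS1 had 2240, 2340 and 2300 CPM in sh1 libraries, 814, 853 and 840 in sh3 libraries, and 603, 592 and 805 in shNC libraries. Because THBS1 was picked for likeness to CCN1 over these same libraries, the order it shares with CCN1 is not a separate result. For CCN2 the nearest were RTKN2 at 0.13, STPG1 at 0.14 and MB21D2 at 0.14, ahead of CRIM1 at 0.36. For ANKRD1 they were the binding-protein gene IGFBP4 at 0.19, the proteoglycan gene SRGN at 0.26 and OCLN, which encodes the tight junction protein occludin, at 0.27. CCN1 lay 0.46 from CCN2 and 1.2 from ANKRD1, and CCN2 lay 0.85 from ANKRD1. At these distances the 3 lists could not share a gene, so that they shared none is not a separate result.

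The kinase relay and its scaffolds above YAP1 were measured in 21 further genes. In sh1, 6 were higher, 3 lower and 12 not called, with a median log2 fold change of 0.02, so that 9 of 21 were called beside 38.7% of all tested genes, a share near the background. In sh3, 4 were higher, 7 lower and 10 not called, with a median of -0.04, or 11 of 21 called beside 26.9% of all tested genes. FRMD6, a FERM-domain protein placed upstream of the kinases, rose in both, at 0.69 ± 0.04 in sh1 (adjusted p = 7.8e-08) and 0.51 ± 0.04 in sh3 (2.3e-06). WWC1, the scaffold KIBRA, rose in sh1 (0.56, adjusted p = 6.3e-07) and stood at 0.06 in sh3 (adjusted p = 0.33), a difference between the hairpins of -0.5 for sh3 against sh1 (adjusted p = 4.8e-06). The kinase genes MAP4K3 and STK4, which encodes MST1, fell in both: MAP4K3 by 0.37 and 0.31, and STK4 by 0.15 and 0.17, in sh1 and sh3. MAP4K4, a kinase acting beside MST, fell by 0.27 in sh1 and stood at 0.09 in sh3 (adjusted p = 0.1), and was higher in sh3 than in sh1 by 0.36.

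Of 18 paralogs of these genes and TEAD cofactors, 13 had enough counts to be tested. In sh1, 2 were higher and 4 lower (median -0.14), and in sh3, 2 were higher and 2 lower (median -0.08). These 6 and 4 of 13 stand beside 38.7% and 26.9% of all tested genes called, and both are near the background. WTIP, a paralog of AJUBA, was higher in both, at 0.34 in sh1 (adjusted p = 0.0039) and 0.47 in sh3 (0.00076). VGLL3, a TEAD cofactor, had 13.6, 14.6 and 14.1 CPM in sh1 libraries, 22.1, 22.9 and 32.1 in sh3 libraries, and 16.2, 15.3 and 13.5 in shNC libraries, and was called in sh3 (0.77, adjusted p = 0.00086) but not in sh1 (-0.09, adjusted p = 0.65). It was the sh3 libraries that stood above both others, by 0.86 over sh1 (adjusted p = 0.00047). CCN3, a paralog of CCN1 and CCN2, ran against them and fell by 0.63 in sh1 (adjusted p = 3.4e-05) and 0.56 in sh3 (0.00016). TEAD3 fell by 0.32 in sh1 (adjusted p = 0.00071) and stood at -0.13 in sh3 (0.11). WWTR1, which encodes TAZ and was chosen after its values were seen, averaged 33.3 FPKM and was called in neither, at -0.06 in sh1 (adjusted p = 0.15) and 0.04 in sh3 (0.38). Without sh1 replicate 1 the sh1 count of higher genes was 1, and the sh3 count of lower genes was 1 without sh1 replicate 1 or 3, sh3 replicate 1 or 3, or shNC replicate 1 or 3. The sh3 count of lower genes was also 1 with no filter and with limma on log2(FPKM + 0.1), and 3 with DESeq2. The sh1 count of lower genes was 6 with library totals, with limma on log2(FPKM + 1) and without shNC replicate 2. With limma on log2(FPKM + 0.1) that sh1 count was 7.

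A further 18 widely used YAP and TEAD targets were measured. In sh1, 11 were higher and 3 lower (median 0.43), beside 38.7% of all tested genes called, and in sh3, 10 were higher and 5 lower (median 0.12), beside 26.9%. AXL, a receptor tyrosine kinase, had 414, 440 and 432 CPM in sh1 libraries, 348, 358 and 351 in sh3 libraries, and 158, 151 and 244 in shNC libraries. It rose in both hairpins, by 1.22 ± 0.14 in sh1 (adjusted p = 2.3e-05) and 0.94 ± 0.14 in sh3 (0.00035), and shNC replicate 3 was again the highest of its group. CCDC80, a secreted matrix-associated protein, rose by 1.44 in sh1 (adjusted p = 4.9e-08) and 0.51 in sh3 (0.00038), and was lower in sh3 than in sh1 by a log2 fold change of -0.93 (4.1e-06). MYOF, a ferlin of the plasma membrane, fell by 0.57 in sh1 (adjusted p = 2.6e-07) and 0.4 in sh3 (1.2e-05). ARHGEF17 fell by 0.27 in sh1 (adjusted p = 6.3e-05), and its sh3 call at -0.11 (adjusted p = 0.039) was lost when any 1 library except shNC replicate 3 was left out (adjusted p = 0.055 to 0.18). FOXF2, a forkhead factor, was called in opposite directions, -0.19 in sh1 (adjusted p = 0.027) and 0.28 in sh3 (0.0048), and differed between the hairpins by 0.47 for sh3 against sh1 (0.00017). The sh1 call of FOXF2 was lost without any 1 sh1 library (adjusted p = 0.051 to 0.11) and without shNC replicate 3 (-0.11, adjusted p = 0.075). The sh3 count of lower genes was 3 without sh3 replicate 1 or shNC replicate 2, and with limma at either pseudocount.

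Genes switched on by SRF with its actin-sensing cofactors MRTF, a second reading of cytoskeletal tension that overlaps with YAP1 in some cells, were measured in 22 members. In sh1, 15 were higher and 1 lower (median 0.46), beside 19.9% of all tested genes called higher and 18.8% lower, and in sh3, 15 were higher and 2 lower (median 0.31), beside 14.4% and 12.4%. TAGLN, an actin-binding protein of smooth muscle, had 246, 267 and 260 CPM in sh1 libraries, 70.1, 64.6 and 66.7 in sh3 libraries, and 27.9, 30.9 and 39.4 in shNC libraries. The groups were fully apart, as for CCN1, with a rise of 2.98 ± 0.1 in sh1 (adjusted p = 2.4e-09) and 1.04 ± 0.1 in sh3 (1.1e-05). The tropomyosin gene TPM1 rose by 1.16 in sh1 (adjusted p = 2.1e-09) and 0.54 in sh3 (1.2e-06). FHL1, a LIM-domain protein, fell by 0.32 in sh1 (adjusted p = 2.3e-05), and its sh3 call at -0.14 (adjusted p = 0.012) was lost without sh3 replicate 3 (0.059) or shNC replicate 1 (0.058). TGFB1I1, the focal adhesion protein Hic-5, rose by 0.29 in sh3 (adjusted p = 0.0021) and stood at -0.12 in sh1 (0.11), and was higher in sh3 than in sh1 by 0.42 (0.00022). In sh1, TGFB1I1 stood at -0.18 and was called without sh1 replicate 3 (adjusted p = 0.026), which made 2 lower genes. The sh1 count of lower genes was also 2 with library totals and with limma at either pseudocount. In sh3 the count of lower genes was 1 without shNC replicate 1 and 3 with library totals.

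Junction and polarity proteins, which carry cell contact to the relay, were measured in 21 genes. In sh1, 4 were higher and 6 lower (median -0.05), beside 38.7% of all tested genes called, and in sh3, 6 were higher and 5 lower (median -0.03), beside 26.9%. CDH2, which encodes N-cadherin, had 136, 134 and 137 CPM in sh1 libraries, 61.4, 66.0 and 62.9 in sh3 libraries, and 50.2, 49.3 and 59.3 in shNC libraries. It ranked like CCN1 and TAGLN, with sh1 far above the rest, and rose by 1.36 in sh1 (adjusted p = 1.9e-08) and 0.26 in sh3 (0.0077). SCRIB, a basolateral polarity scaffold, rose by 0.41 in sh1 (adjusted p = 4.2e-06) and 0.49 in sh3 (2.6e-06). LLGL2, of the same polarity module, fell by 0.93 (adjusted p = 1.1e-07) and 0.7 (2.5e-06), and CTNNA1, which encodes alpha-catenin and links cadherins to actin, fell by 0.34 (3.1e-07) and 0.17 (0.00015), in sh1 and sh3. LLGL1 was called in opposite directions, -0.45 in sh1 (adjusted p = 6.8e-07) and 0.16 in sh3 (0.0033).

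**Figure D5:**
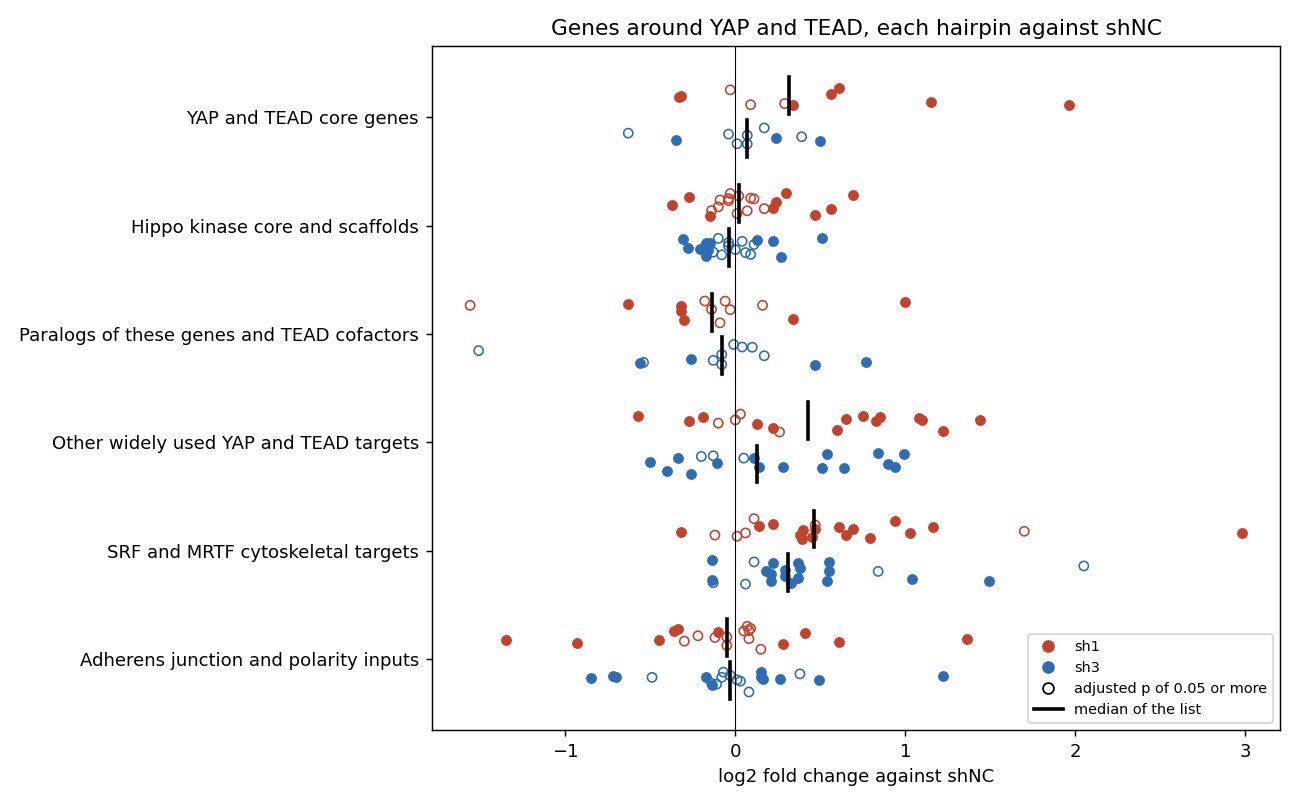
Log2 fold change of each tested gene in the 10 core genes and the 5 lists around them, sh1 in red above sh3 in blue within each list; filled points passed an adjusted p of 0.05, open points did not, and black bars are list medians. The SRF and MRTF list has medians of 0.46 in sh1 and 0.31 in sh3, while the relay above YAP1 has 0.02 and -0.04.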

How the data were processed

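Poly(A) RNA from 9 SKOV3 libraries was measured, 3 each for sh1, sh3 and shNC. The authors deposited raw read counts, as whole numbers for each gene. Beside them stand deposited FPKM values, scaled by gene length and library size. The submitters' processing notes name cutadapt 1.9, StringTie 2.1.6, HISAT2 2.2.1, edgeR, DESeq2 and the build GRCh38. The role of each tool, the annotation and the use of strand in counting were not given in the sources used here. Reads that overlapping genes or close paralogs share are therefore uncertain.

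The counts were tested with edgeR 4.0.16 in R 4.3.3 (filterByExpr with a minimum count of 10, TMM factors, estimateDisp, glmQLFit and glmQLFTest, 1 mean per group over all 9 libraries, no block), two-sided, with Benjamini-Hochberg adjustment over 21296 genes and a threshold of 0.05. The SE of a log2 fold change was its size divided by the square root of F. CPM values were scaled by TMM factors. Only the edgeR, DESeq2 and limma fits were tried on simulated counts, with changes placed in sh1 and limma run on CPM rather than FPKM. That simulation had a constant spread for all genes and no library standing apart. Alternatives were DESeq2 1.42.0, no filter, library totals, limma 3.58.1 on log2(FPKM + 1) and log2(FPKM + 0.1), a replicate block, only the groups compared, and each library left out. Every pair of replicates differed beyond sampling noise (chi-square divided by its degrees of freedom, 8.9 to 18.9), and each was kept as its own library. The highest values, 16.9 and 18.9, were those of shNC replicate 3 with shNC replicates 1 and 2. A floor of 3 counts covers counting error alone, because PCR can copy 1 molecule many times.

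The 10 genes, the lists and the markers were chosen with earlier results of these data known. A further list that the design named is not reported here. All 10 genes are named; from each of the 5 lists, up to 2 called genes per direction with the largest change in the mean of sh1 and sh3 against shNC and up to 1 per direction with the largest difference of sh3 against sh1 are named, at a mean of at least 1 FPKM, with the 3 genes most like CCN1, CCN2 and ANKRD1. Gene coordinates are those in the deposited table, and promoter sequences are from RefSeq, GRCh38.p14, matched by symbol.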

Additional observations from a re-analysis of the deposited data

Results flagged for a closer look

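The hairpins differed from each other in 8 of the 10 genes by the direct test of sh3 against sh1 (edgeR), although both are named for 1 target. On the log2 scale sh3 minus sh1 was -1.46 for CCN1, -0.92 for ANKRD1, -0.76 for CCN2, -0.39 for AMOTL2, -0.36 for CRIM1 and -0.32 for AMOTL1, and 0.4 for LATS2 and 0.27 for YAP1. CCN1 averaged 126 ± 8.37 CPM in sh3 and 348 ± 13.1 CPM in sh1 (SD, n = 3 each), which is 2.75-fold lower in sh3. YAP1 averaged 271 ± 1.45 CPM in sh3 and 224 ± 2.51 CPM in sh1, so the group with the higher CCN1 and CCN2 RNA had the lower YAP1 RNA. With 3 libraries a group, no single library was tested for standing apart.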

How the results depend on the processing

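Each value was recomputed under up to 16 alternatives; only the groups compared was not run for the mean of both hairpins. Of the values for the 10 genes, 578 kept their direction and side of the threshold, 31 lost a call, 15 gained 1 and 6 changed sign; for the listed genes the numbers were 1396, 42, 7 and 4. The 3 genes called in sh3 against shNC became 5 with a replicate block, and 2 to 6 with a library left out, the 6 without shNC replicate 3. The 2 called higher in sh3 became 1 with DESeq2, no filter, library totals, either limma pseudocount and only the groups compared, and 1 to 5 with a library left out, and the 1 called lower became 2 with DESeq2, library totals and the replicate block, and 1 to 2 with a library left out. Log2 fold changes that changed sign were those of TEAD1 and AJUBA in sh3, ANKRD1 and FOXF2 in the mean of both hairpins, and STK4 in sh3 against sh1. TEAD1 stood at -0.02 with library totals and -0.01 to 0.06 with a library left out. AJUBA ran from -0.02 to 0.27, and was called at 0.27 without shNC replicate 3. ANKRD1 was -0.17 ± 0.21 in the main fit and ran from -0.27 to 0.02, and FOXF2 ran from 0.0 to 0.13. STK4 stood at 0.01 with either limma pseudocount and -0.05 to 0.0 with a library left out. The cause was not tested. Replicate numbers did not pair the libraries: same-numbered libraries deviated together with a correlation of -0.032 to 0.021 across genes, and a library matched its own number best in 2 of 18 comparisons with another group. ANKRD1, at 148 to 448 counts, was the gene with the widest error, and STXBP6, at 0 to 31 counts, was too low for a knockdown to be detected.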

Other observations

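The ratio of CCN1 to CCN2 FPKM was 1.15, 1.11 and 1.16 in sh1 libraries, 0.679, 0.708 and 0.709 in sh3 libraries, and 0.703, 0.71 and 0.578 in shNC libraries, so CCN1 exceeded CCN2 in sh1 alone. The ratio of AMOTL2 to AMOTL1 FPKM was 3.32, 3.38 and 3.4 in sh1 libraries, 3.21, 3.24 and 3.15 in sh3 libraries, and 1.88, 2.06 and 2.79 in shNC libraries. It was above every shNC library in both hairpins, although AMOTL2 was the gene called in sh1 and AMOTL1 the gene called in sh3. The ratio of TEAD1 to YAP1 FPKM was 0.597, 0.615 and 0.601 in sh1 libraries, 0.48, 0.469 and 0.469 in sh3 libraries, and 0.442, 0.44 and 0.483 in shNC libraries, with sh3 and shNC overlapping. These ratios were chosen after the values were seen and were not tested.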
